A study of Mus musculus with 8 samples.

Results

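The vascular endothelial growth factors and the angiopoietins were examined as 10 genes: the ligands *Vegfa*, *Vegfb*, *Vegfc*, *Pgf*, *Angpt1* and *Angpt2*, and the receptors and co-receptor *Flt1*, *Kdr*, *Nrp1* and *Tek*. They were taken by symbol from the 19938 genes that had at least 1 probe set (the probes that together report a transcript) annotated to that gene alone. Each of the 10 genes had exactly 1 such probe set, and all 10 were retained. None of the 10 differed between hyperoxia-exposed and control retina, or between inferior and superior retina, at an adjusted p under 0.05. The nearest to that threshold were *Vegfa*, which was lower on all 4 hyperoxia arrays than on any control array, and *Pgf*, which was higher.

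RNA was measured in 4 groups of 2 arrays each: inferior retina after hyperoxia, inferior control retina, superior retina after hyperoxia, and superior control retina. All animals were young adult C57BL/6J mice kept in dim cyclic light (12 h of light at 5 lux in each day). The hyperoxia-exposed mice breathed 75% oxygen for 14 days, starting at postnatal day 83 to 90, and the controls stayed in normoxia and were collected at the same age. Each array held inferior or superior retina pooled from 2 mice, 1 male and 1 female. The labels do not say whether inferior and superior samples of a replicate number came from the same mice, and the arrays were treated as independent. If they did, the standard errors of comparisons between the regions, and of changes averaged over both regions, could be wrong. The 4 hyperoxia arrays, and the 4 control arrays, would then not be independent of each other. The p-values reflect the variation among these pools and nothing wider. The comparison addressed why the inferior retina of this strain is the more vulnerable to oxygen.

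VEGF-A is made in the retina chiefly by Muller cells, astrocytes and the pigment epithelium, and its transcription rises in low oxygen through the hypoxia-inducible factors (HIF). It signals in endothelial cells through VEGFR2, the product of *Kdr*, while VEGFR1, the product of *Flt1*, binds VEGF-A, VEGF-B and placental growth factor (*Pgf*) and acts largely as a trap for VEGF-A. Angiopoietin-1 activates the endothelial receptor TIE2, the product of *Tek*, and stabilizes vessels, whereas angiopoietin-2 mostly opposes it and loosens them. In newborn rodents, excess oxygen lowers retinal VEGF-A and prunes the growing capillaries, but the mice here were adults with a finished retinal circulation.

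Because HIF binds the letters ACGTG or GCGTG, the bases just upstream of the transcription start were searched for these motifs on both strands. RefSeq (build GRCm38.p6) held a promoter for 8 of the 10 genes, all but *Angpt1* and *Angpt2*. The window was the 250 bases before the first listed start, of which 38.6% held ACGTG or GCGTG over all 32851 windows in the table. This window held at least 1 match in 5 of the 8 genes (*Vegfb*, *Pgf*, *Kdr*, *Flt1* and *Nrp1*) and none in *Vegfa*, *Vegfc* or *Tek*. A later start listed for *Vegfa* had 2 matches in its window and is not shown. The motif is short, and a match is a description of the letters only. The *Vegfa* window, chr17:46032378-46032627 on the minus strand, is shown whole because *Vegfa* is the ligand known for its response to oxygen, and its capitals mark the GC box GGGCGG, the binding letters of the SP1 family, which 32.7% of all windows held on either strand.
Vegfa: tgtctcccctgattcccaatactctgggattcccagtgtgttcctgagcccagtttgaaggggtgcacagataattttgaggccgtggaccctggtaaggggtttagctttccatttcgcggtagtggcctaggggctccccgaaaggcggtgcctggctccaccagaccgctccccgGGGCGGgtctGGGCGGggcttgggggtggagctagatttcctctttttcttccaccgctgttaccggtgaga
No ACGTG or GCGTG lay within these 250 bases, which says nothing about sites elsewhere: the hypoxia response element described for human *VEGFA* lies farther upstream than this window.

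The matches in *Pgf*, *Kdr* and *Flt1*, which with *Vegfa* had the 4 differences farthest from 0 in inferior retina, are shown with 10 bases on either side. So is 1 match in each of 2 HIF targets described further on, of the 2 that *Slc16a3* had and the 3 that *P4ha1* had. The motif, or its reverse complement CACGT or CACGC, is in capitals.
Pgf, chr12:85177423-85177447, minus strand: cctgcggggtCACGCgcactcaggt
Kdr, chr5:75978572-75978596, minus strand: gggggagtggGCGTGggaaaccggg
Kdr, chr5:75978530-75978554, minus strand: ccagtgggggGCGTGgccggacgca
Flt1, chr5:147726181-147726205, minus strand: agcgccaccgCACGCgcgctctggc
Slc16a3, chr11:120949030-120949054, plus strand: ggcagcggtgACGTGcgcgggggac
P4ha1, chr10:59323270-59323294, plus strand: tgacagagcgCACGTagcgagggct
GCGTG was found in 28.2% of all windows and ACGTG in 16.6%. The matches of *Pgf*, *Kdr* and *Flt1* were of the GCGTG form, as were the 2 matches of *P4ha1* that are not shown.

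Values below are the deposited log2 signals, on which a difference of 1 is a 2-fold change, and levels of different genes cannot be compared because each probe set has its own brightness. Differences were tested with limma, a linear model that shares the estimate of spread between probe sets, and p-values were adjusted over all probe sets on the array. *Vegfa* (probe set 10451198) had log2 signals of 8.77 and 9.01 in inferior retina after hyperoxia, against 9.28 and 9.36 in inferior control retina. In superior retina the signals were 8.86 and 8.89 after hyperoxia and 9.18 and 9.20 in controls. The groups thus did not overlap in either region, and the control array with the lowest *Vegfa* signal lay 0.17 above the hyperoxia array with the highest. The log2 difference, hyperoxia minus control, was -0.43 in inferior retina (95% interval -0.66 to -0.20, limma adjusted p = 0.154) and -0.32 in superior retina (95% interval -0.55 to -0.09, limma adjusted p = 0.789). Over the mean of both regions it was -0.37 (standard error 0.07), a level 0.772 times that of controls (limma adjusted p = 0.0826).

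Across the 20 alternative analyses of the inferior change and the 19 of the mean change, *Vegfa* was lower after hyperoxia every time. It passed the threshold in 1 of the 20 (adjusted p from 0.0498 to 0.442 by limma and the methods' t-test) and in 3 of the 19 (adjusted p from 0.0188 to 0.553 by the same tests). The constant sign of *Vegfa* was largely fixed beforehand, as was that of *Pgf* below. Many alternatives keep the group means, and leaving out an array cannot reverse groups that do not overlap. Arrays of retina cannot tell fewer cells of a type from less RNA per cell, for *Vegfa* or any gene below.

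*Pgf* (probe set 10401607), a ligand that binds VEGFR1 but not VEGFR2, was the only member higher on all 4 hyperoxia arrays than on all 4 control arrays. Its log2 signals were 6.57 and 6.70 in inferior retina after hyperoxia, against 6.16 and 6.18 in inferior controls. Superior retina gave 6.41 and 6.45 after hyperoxia and 6.21 and 5.93 in controls. The inferior hyperoxia arrays were the highest of the 8. The log2 difference was 0.47 in inferior retina (95% interval 0.21 to 0.72, limma adjusted p = 0.157) and 0.36 in superior retina (95% interval 0.10 to 0.61, limma adjusted p = 0.772). The mean of both regions was 0.41 higher after hyperoxia (standard error 0.08), or 1.33-fold (limma adjusted p = 0.0807), and it was above 0 in all 19 alternatives, of which 1 passed the threshold (limma and methods' t-test, adjusted p from 0.0313 to 0.375).

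Neither of the other 2 VEGF ligands passed the test. Both had hyperoxia arrays above the control arrays in inferior retina and overlapping groups in superior retina. With 2 arrays per group, such a separation within 1 region arises easily. Its share over all probe sets was not counted, for these or any other gene here. *Vegfb* (probe set 10465559), a VEGFR1 ligand that has little effect on vessel growth, had log2 signals of 9.41 and 9.56 in inferior retina after hyperoxia, against 9.37 and 9.26 in inferior controls, a difference of 0.17 (95% interval -0.04 to 0.38, limma adjusted p = 0.636). In superior retina it had 9.43 and 9.44 after hyperoxia and 9.41 and 9.48 in controls. *Vegfc* (probe set 10571788), best known as the growth factor of lymphatic vessels, had 6.53 and 6.60 in inferior retina after hyperoxia and 6.43 and 6.47 in inferior controls. Its superior signals were 6.50 and 6.61 after hyperoxia and 6.65 and 6.51 in controls, so that the superior groups overlapped.

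**Figure D1:**
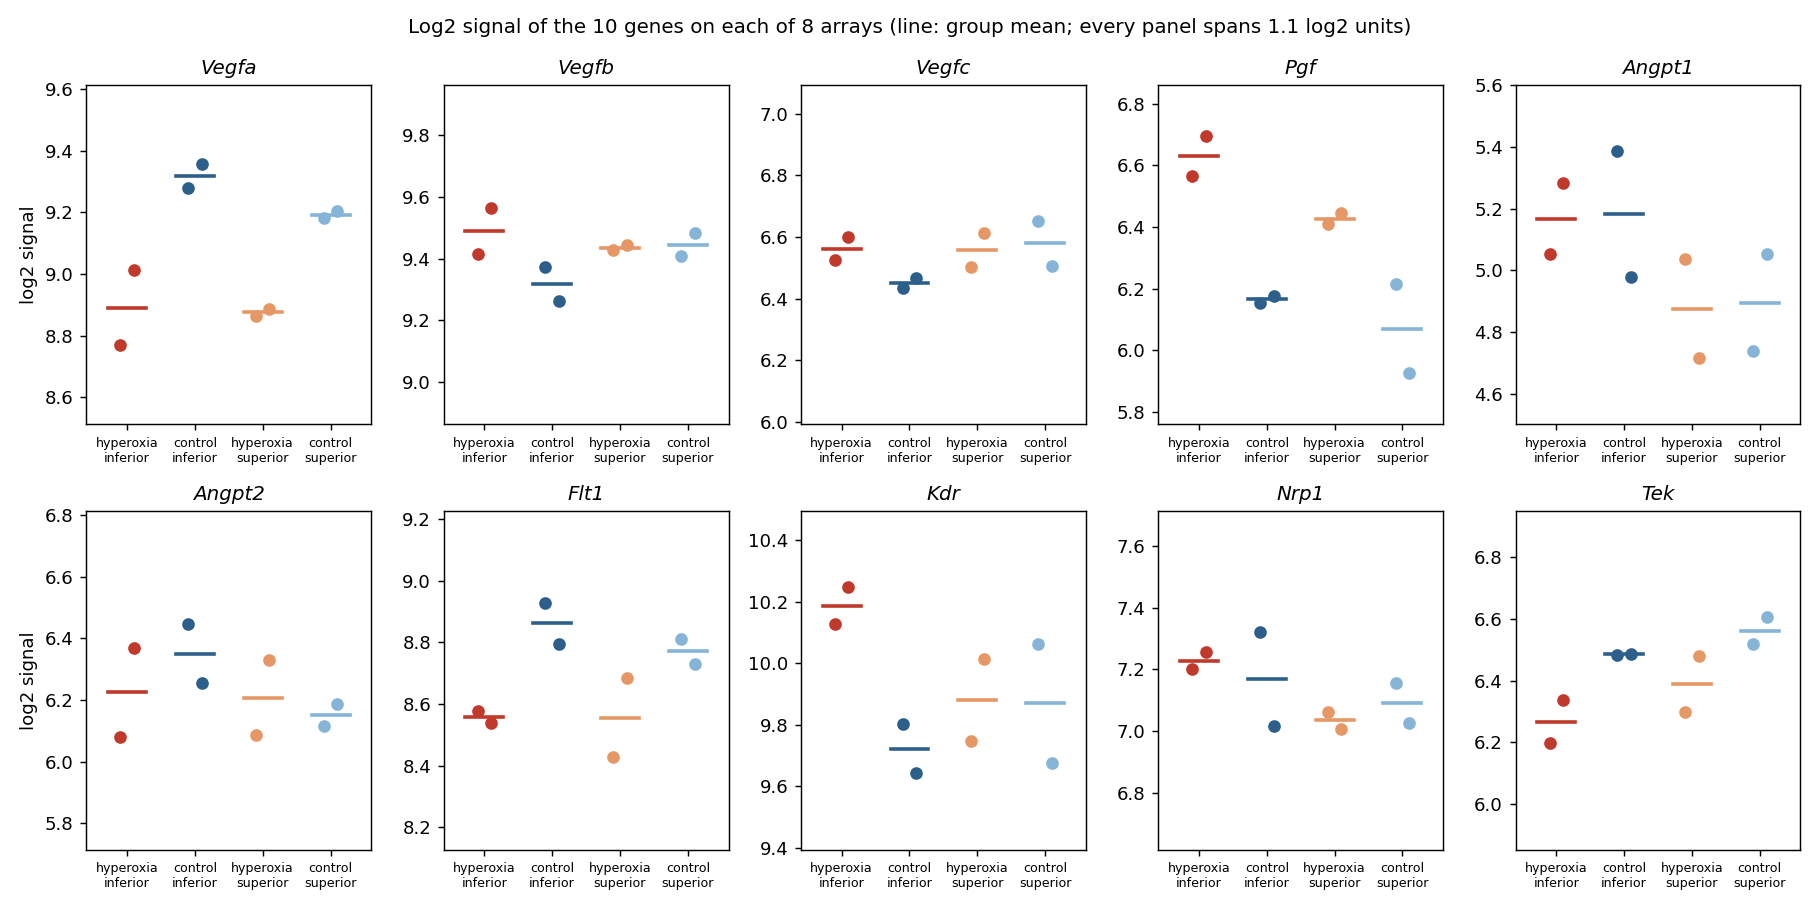
Log2 signal (y axis) of each of the 10 genes on each array, by group (x axis), with points for the 2 arrays of a group and a line for their mean. The hyperoxia arrays lay wholly below the control arrays for *Vegfa*, *Flt1* and *Tek* and wholly above them for *Pgf*, by a gap that was only 0.002 for *Tek*.

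Of the receptors, *Flt1* (probe set 10535807) had log2 signals of 8.58 and 8.54 in inferior retina after hyperoxia, against 8.93 and 8.80 in inferior controls. Superior retina had 8.43 and 8.68 after hyperoxia and 8.81 and 8.73 in controls. All 4 hyperoxia arrays were below all 4 control arrays, but the nearest pair was 0.05 apart. The log2 difference was -0.30 in inferior retina (95% interval -0.55 to -0.06, limma adjusted p = 0.412), -0.22 in superior retina (95% interval -0.46 to 0.03, limma adjusted p = 0.896) and -0.26 over both (limma adjusted p = 0.319). The superior difference was -0.087 with replicate 1 of hyperoxia superior retina left out and -0.34 with replicate 2 left out.

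*Kdr* (probe set 10530692) had hyperoxia arrays above the control arrays in inferior retina and not in superior retina. Its log2 signals were 10.13 and 10.25 in inferior retina after hyperoxia, the 2 highest of the 8 arrays, against 9.80 and 9.64 in inferior controls. In superior retina the groups overlapped, with 9.75 and 10.01 after hyperoxia and 10.06 and 9.68 in controls. The log2 difference was 0.46 in inferior retina (95% interval 0.13 to 0.80, limma adjusted p = 0.333) and 0.01 in superior retina (95% interval -0.33 to 0.35, limma adjusted p = 0.997). The difference between these changes, 0.45 (95% interval -0.02 to 0.93), did not pass the test (limma adjusted p = 0.822), and it was 0.22 with the pigment epithelium transcripts of each array as a covariate, which was chosen after seeing the data. A difference between the regions is therefore not shown for *Kdr*.

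*Nrp1* (probe set 10576639), a co-receptor shared by VEGF-A and the class 3 semaphorins, had log2 signals of 7.20 and 7.26 in inferior retina after hyperoxia and 7.32 and 7.02 in inferior controls. Its superior signals were 7.06 and 7.01 after hyperoxia and 7.16 and 7.03 in controls. The groups overlapped in both regions, and the mean difference had a 95% interval of -0.18 to 0.19.

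In the angiopoietin system, *Tek* (probe set 10505954) had log2 signals of 6.20 and 6.34 in inferior retina after hyperoxia, against 6.48 and 6.49 in inferior controls. Superior retina had 6.30 and 6.48 after hyperoxia and 6.52 and 6.61 in controls. The log2 difference was -0.22 in inferior retina (95% interval -0.45 to 0.01, limma adjusted p = 0.56), -0.17 in superior retina (95% interval -0.40 to 0.05, limma adjusted p = 0.906) and -0.20 over both (limma adjusted p = 0.43). After quantile normalization or median centring, 3 rather than 4 members had hyperoxia and control arrays that did not overlap.

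Both ligands of TIE2 overlapped between hyperoxia and control in each region. *Angpt1* (probe set 10428376), the only member whose mean over the 8 arrays was under 6, had log2 signals of 5.05 and 5.28 in inferior retina after hyperoxia and 5.39 and 4.98 in inferior controls. Superior retina had 5.04 and 4.71 after hyperoxia and 4.74 and 5.05 in controls. The mean difference had a 95% interval of -0.30 to 0.27.

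*Angpt2* (probe set 10577315), which endothelial cells release when vessels are remodelled, had log2 signals of 6.08 and 6.37 in inferior retina after hyperoxia and 6.45 and 6.25 in inferior controls. Its superior signals were 6.09 and 6.33 after hyperoxia and 6.12 and 6.19 in controls. The 2 replicates of each hyperoxia group were farther apart than any 2 group means. The difference was -0.13 in inferior retina (95% interval -0.43 to 0.17, limma adjusted p = 0.819) and 0.06 in superior retina (95% interval -0.24 to 0.36, limma adjusted p = 0.985).

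**Figure D2:**
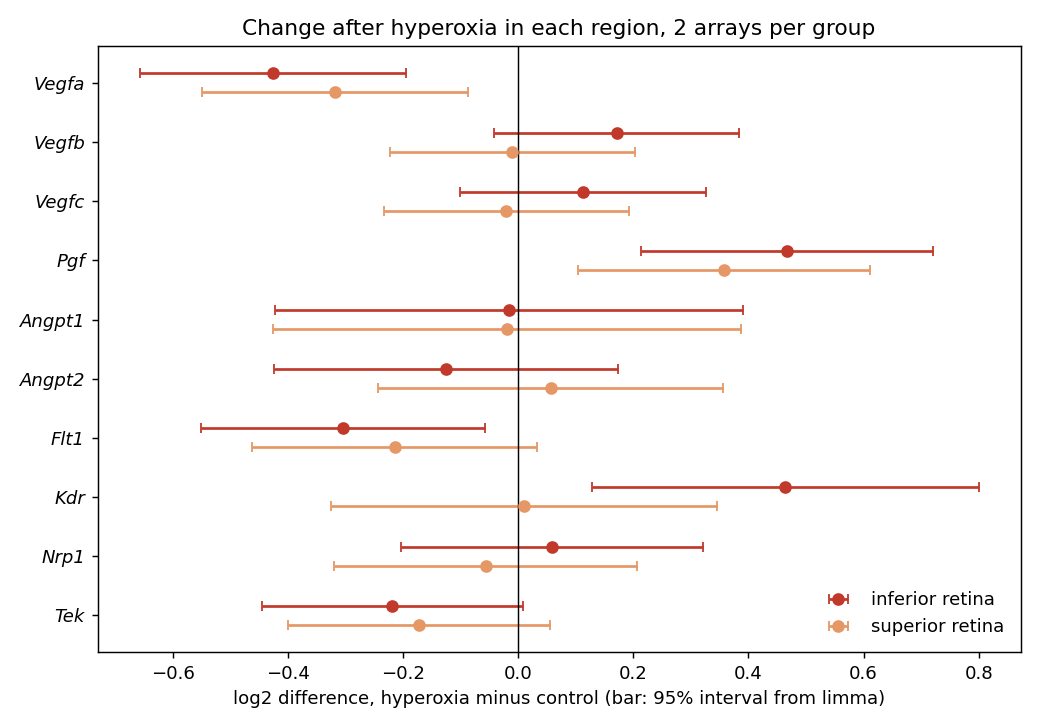
Log2 difference, hyperoxia minus control (x axis), of each of the 10 genes (y axis) in inferior and superior retina, with 95% intervals from limma as bars (2 arrays per group). The intervals of *Vegfa* and *Pgf* lay clear of 0 in both regions, those of *Flt1* and *Kdr* in inferior retina only, and no member had an adjusted p under 0.05.

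Over all 28853 probe sets, limma called 0.492% in hyperoxia against control of inferior retina, 0.0173% in superior retina and 0.568% over the mean of both regions, and in each it called 0 of the 10 members. At an unadjusted p under 0.05 the members numbered 4 in inferior retina (*Vegfa*, *Pgf*, *Kdr* and *Flt1*) with 9.39% of all probe sets, 2 in superior retina (*Vegfa* and *Pgf*) with 5.59%, and 4 over both (*Vegfa*, *Pgf*, *Flt1* and *Tek*) with 8.98%. The methods' t-test, unadjusted and at the same threshold, gave 3, 2 and 4 members in these comparisons, and 0 in each after Benjamini-Hochberg adjustment. Hyperoxia and control arrays did not overlap for 4 of the 10 members, and for 5.49% of all probe sets. The median member difference was 0.02 in inferior retina, -0.02 in superior retina and -0.01 over both, against 0.01, 0.00 and 0.00 over all probe sets, and as many members had a mean difference above 0 as below it (5 each).

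For no member was the change after hyperoxia shown to differ between the regions: 0 of 10 passed for the difference of the changes, as did 0.00347% of all probe sets, and 0 had an unadjusted p under 0.05, against 6.04% of all. The methods' t-test also gave 0 before and after adjustment. Besides *Kdr*, the difference of the changes, inferior minus superior, was -0.18 for *Angpt2* (95% interval -0.61 to 0.24), -0.11 for *Vegfa* (95% interval -0.44 to 0.22) and 0.11 for *Pgf* (95% interval -0.25 to 0.47). All 3 intervals include 0.

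Inferior retina was also compared with superior retina at each oxygen level. After hyperoxia, 0 of 10 members passed the test (0.139% of all probe sets did) and 0 had an unadjusted p under 0.05 (8.50% of all). *Kdr* was 0.31 higher in inferior than in superior retina there (95% interval -0.03 to 0.64, limma adjusted p = 0.621), and *Tek* was the only member with a negative difference, at -0.12. In control retina, 0 of 10 members passed, as did 0% of all probe sets, with 0 members and 5.30% of all probe sets at an unadjusted p under 0.05. *Kdr* had a difference of -0.15 there (limma adjusted p = 0.967) and *Angpt1* one of 0.29 (95% interval -0.12 to 0.69, limma adjusted p = 0.947). The *Angpt1* difference was 0.081 with replicate 1 of control inferior retina left out and 0.49 with replicate 2 left out.

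Over the mean of both oxygen levels, 0 of 10 members passed (0.0173% of all probe sets), and *Angpt1* was the 1 member with an unadjusted p under 0.05, a threshold that 7.87% of all probe sets met. *Angpt1* was 0.29 higher in inferior retina (95% interval 0.00 to 0.58, limma adjusted p = 0.633), though its inferior and superior arrays overlapped. The methods' t-test gave 0 members in all 3 comparisons of the regions, before and after adjustment.

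No other gene of the family passed the test. Of 9 other ligands, receptors and partners measured (*Vegfd*, *Flt4*, *Nrp2*, *Tie1*, *Angpt4*, *Ptprb*, *Plxnd1*, *Sema3a* and *Sema3f*), 0 passed in any of the 7 comparisons. *Plxnd1*, an endothelial semaphorin receptor, had log2 signals of 7.25 and 7.51 in inferior retina after hyperoxia, against 6.81 and 6.97 in inferior controls (difference 0.50, limma adjusted p = 0.137). *Sema3a*, a ligand of NRP1 that repels growing vessels, had 6.98 and 7.12 in inferior retina after hyperoxia, against 7.47 and 7.44 in inferior controls (difference -0.41, limma adjusted p = 0.15). Neither pair of groups overlapped in inferior retina, but both genes were named for having the smallest p of their list there. Of 16 signalling partners of the receptors, 0 passed, and the 2 with the smallest p in inferior retina were the integrin subunit *Itgav* (difference 0.30) and the PI3-kinase subunit *Pik3r1* (difference -0.27).

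No marker of vessel cells passed the test. Of 20 endothelial genes 0 passed, and their median deviation from each gene's own mean ranged from -0.09 to 0.06 over the 8 arrays. Some of these probe sets were dim, with means under 6, and a flat median does not show that the vessels were unchanged. The 2 endothelial genes with the smallest p in inferior retina were *Vwf*, von Willebrand factor (difference 0.25), and *Ecscr* (difference 0.17). Of 10 genes of tip cells and new vessels 0 passed: *Adm*, adrenomedullin, had a difference of -0.39 in inferior retina and *Plvap*, a protein of endothelial diaphragms, one of 0.32. The *Plvap* difference was 0.085 with replicate 1 of control inferior retina left out and 0.55 with replicate 2 left out. Of 12 pericyte and smooth muscle genes 0 passed, among them *Ndufa4l2* with a difference of -0.36 and *Rgs5* with one of 0.20 in inferior retina.

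Many HIF targets fell after hyperoxia. Of 18 HIF targets and genes of oxygen sensing measured, *Vegfa* not among them, 8 fell over the mean of both regions (*Slc16a3*, *P4ha1*, *Bnip3*, *Pdk1*, *Egln1*, *Ddit4*, *Pgk1* and *Ankrd37*) and 0 rose, with a median difference of -0.27 against 0.00 over all probe sets. Of all probe sets, 0.568% passed in that comparison. In inferior retina 3 fell (*Slc16a3*, *P4ha1* and *Pdk1*), where 0.492% of all probe sets passed. In superior retina 0 passed (0.0173% of all did), while 9 had an unadjusted limma p under 0.05, all lower, against 5.59% of all. *Slc16a3*, the lactate exporter MCT4, had log2 signals of 8.11 and 7.99 in inferior retina after hyperoxia, against 9.68 and 9.53 in inferior controls. It had 8.45 and 8.31 in superior retina after hyperoxia, against 9.23 and 9.45 in superior controls.

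Over both regions *Slc16a3* fell by 1.26 on the log2 scale, to a level 0.418 times that of controls (limma adjusted p = 0.000375). *P4ha1*, a collagen prolyl hydroxylase subunit, fell by 0.67 (limma adjusted p = 0.00787). *Pdk1*, a pyruvate dehydrogenase kinase, fell by 0.61 (limma adjusted p = 0.0166), and the mitophagy receptor *Bnip3* by 0.56 (limma adjusted p = 0.0155). *Slc16a3* passed in 18 of 19 alternatives, *P4ha1* in 15, and *Bnip3* and *Pdk1* in 12 each. *Bnip3* had 2 probe sets, and the dimmer one had a difference of -0.33 that did not pass (limma adjusted p = 0.293). *Hif1a* itself did not pass (limma adjusted p = 0.969). The number of the 18 genes that passed over both regions was 0 by the methods' t-test, 1 with the pigment epithelium covariate, 6 without control inferior replicate 2 and between 1 and 5 without any other single array, lowest without control superior replicate 2. In inferior retina it was 0 by the methods' t-test and 9 with a variance trend, and 1 without hyperoxia inferior replicate 2 or control inferior replicate 2.

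**Figure D3:**
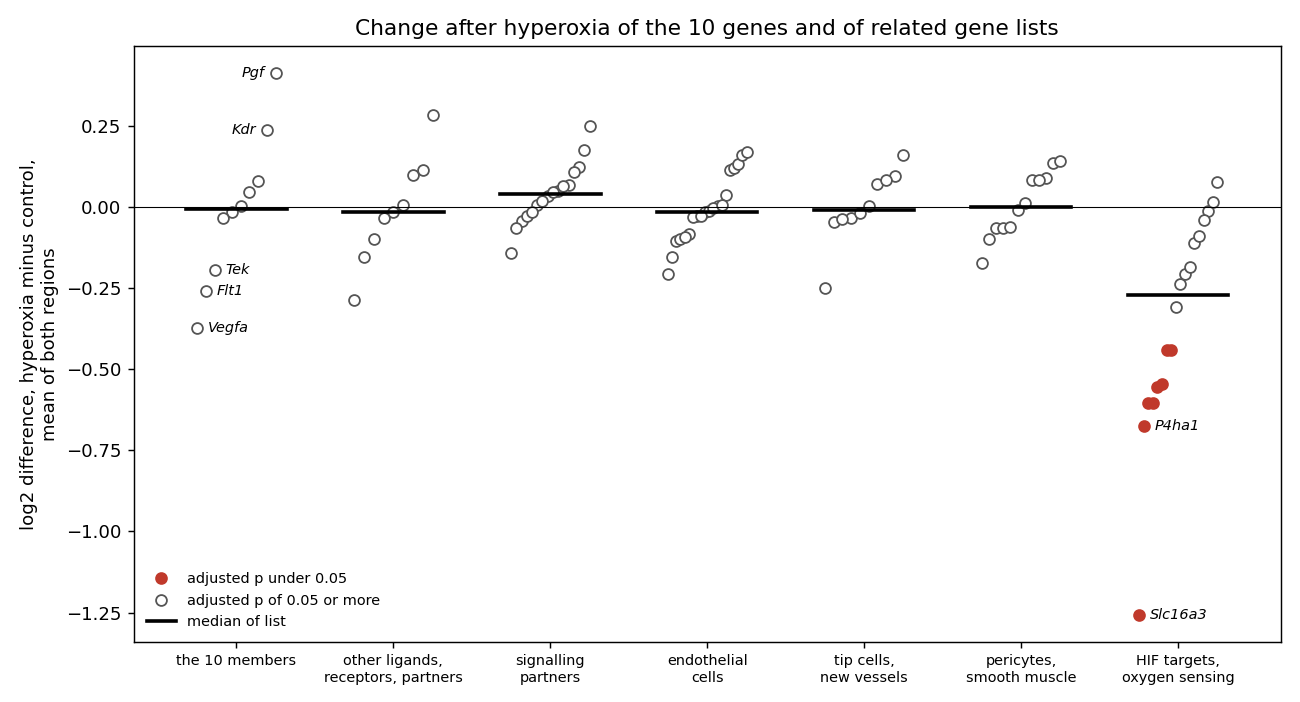
Log2 difference, hyperoxia minus control, over the mean of both regions (y axis) for the 10 members and for each gene of 6 related lists (x axis), with filled points for an adjusted p under 0.05 and a bar for the median of a list. Filled points occur only among HIF targets, where *Slc16a3* is at -1.26, below *Vegfa* at -0.37.

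Genes of other cell types also differed after hyperoxia. All 12 microglia and macrophage genes had higher means after hyperoxia in both regions. In inferior retina 9 of them passed the test, against 0.492% of all probe sets, and in superior retina 1 did, against 0.0173%. The median deviation of the list was 1.00 and 1.06 on the inferior hyperoxia arrays, against -0.36 and -0.44 on inferior controls. In superior retina it was 0.05 and 0.04 after hyperoxia and -0.48 and -0.55 in controls. The astrocyte and glial stress gene *Gfap* rose by 2.42 in inferior retina. It was the 1 of 6 astrocyte genes that passed there, and the median difference of that list was 0.04. *Glul*, glutamine synthetase of Muller cells, was the 1 of 12 Muller cell genes that passed, with a fall of 0.70 in inferior retina (limma adjusted p = 0.0416, and past the threshold in 8 of 20 alternatives). The part of microglia or glia in the values of *Vegfa*, *Pgf* or *Kdr* was not tested.

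Tissue from outside the neural retina was uneven between arrays. Pigment epithelium genes (13 measured, 0 passed) had a median deviation of 0.09 and 0.15 on inferior hyperoxia arrays, against -0.38 and 0.19 on inferior controls. On superior arrays it was 0.32 and 0.40 after hyperoxia and -0.80 and -0.08 in controls. In superior retina 8 of the 13 genes had an unadjusted limma p under 0.05, all higher after hyperoxia, against 5.59% of all probe sets. The median difference of the list there was 1.13. In inferior retina 2 did, both higher, against 9.39% of all, with a median difference of 0.09. The genes did not move together there, and their differences ran from -0.81 to 1.00. The list's median, used as the covariate, therefore describes these genes only roughly. In superior retina these transcripts thus differed between hyperoxia and control arrays, but the 2 control arrays also differed, at -0.80 and -0.08. With markers of 1 tissue on 2 arrays per group, exposure and unevenness between arrays cannot be told apart. *Rpe65*, the defining enzyme of that tissue, was measured at 8.59 to 9.32 after hyperoxia and at 7.25 to 9.07 in controls. No floor was set for its probe set, so its presence on every array is not shown. With the list's median as a covariate the mean difference was -0.42 for *Vegfa* and 0.52 for *Pgf*, neither past the threshold (limma adjusted p = 0.553 and 0.357).

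Lens genes (10 measured, 0 passed) had a median deviation of 3.61 on control inferior replicate 2 and of -0.91 to 0.03 on the other 7 arrays. Without that array the inferior difference was -0.39 for *Vegfa*, 0.48 for *Pgf*, -0.37 for *Flt1*, -0.22 for *Tek* and 0.38 for *Kdr*. Each kept its direction, as it had to, because the inferior hyperoxia and control arrays of these genes did not overlap. Markers of choroid and sclera (10 measured), rods (8 measured) and erythrocytes (2 measured) had 0 genes past the test in hyperoxia against control.

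**Figure D4:**
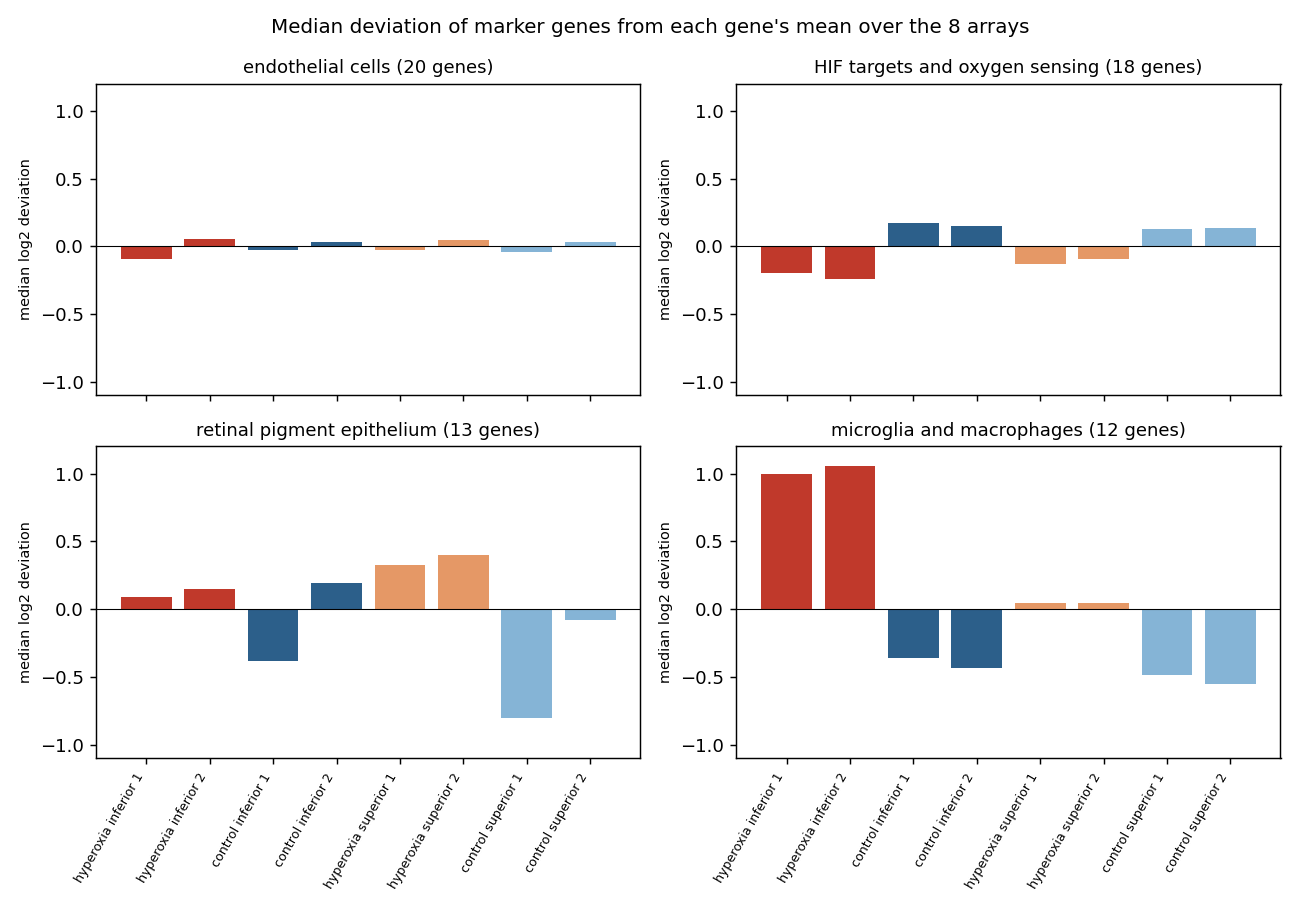
Median deviation of 4 gene lists from each gene's mean over the 8 arrays (y axis, log2 units), for each array (x axis). Endothelial genes stayed between -0.09 and 0.06, HIF targets were below 0 on all 4 hyperoxia arrays, and microglial genes were highest on the inferior hyperoxia arrays, at 1.00 and 1.06.

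For 3 members, the genes with a mean log2 signal of at least 7 whose pattern over the 8 arrays was most alike were listed by Pearson's correlation, as a description that also reflects the shared difference between groups. For *Vegfa*, over 10864 genes, they were *Pam* (r = 0.979), the glycolytic enzyme gene *Tpi1* (r = 0.964) and *Cenpc1* (r = 0.950). For *Kdr* they were *Trib1* (r = 0.972), *Cops4* (r = 0.961) and *Ddah1* (r = 0.954), all with an inferior difference above 0, from 0.14 to 0.30. For *Angpt2* they were *Lhfp* (r = 0.986), *Prr13* (r = 0.985) and *Msl1* (r = 0.969).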

How the data were processed

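Retinal RNA was hybridized to 8 Affymetrix Mouse Gene 1.0 ST arrays (4 groups of 2). The authors imported core probes into Partek, applied RMA background correction and median polish summarization, and deposited log2 values per probe set. Array medians lay between 6.98 and 7.05. Genes were named from the platform annotation (21789 of 28853 probe sets with 1 symbol, 1621 with several, 5443 unlisted), and of several 1-symbol probe sets the brightest was used. Group means of all 8 arrays were fitted with limma 3.58.1 (R 4.3.3; 4 residual degrees of freedom), with Benjamini-Hochberg adjustment of each comparison over 28853 probe sets. The script was tested on simulated data. The members and lists were chosen with earlier results of these data known. All members were named. Of each vascular, signalling or HIF list, the genes past the threshold or otherwise the 2 with the smallest p in inferior retina were named. Lists of other cells were counted, with *Gfap*, *Glul* and *Rpe65* named, and the naming of *Rpe65*, *Hif1a* and the HIF genes beyond 4 was decided after their values were seen. Alternatives were quantile normalization, median centring, a filter on means under 6, 1-symbol probe sets, the compared arrays alone, a variance trend, the methods' t-test, a replicate block, a robust prior, averaging the probe sets per gene and each array left out. Covariates for pigment epithelium and lens transcripts were added after seeing the data. With 2 arrays per group, the number of arrays limits the precision. Promoter windows came from RefSeq.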

Additional observations from a re-analysis of the deposited data

How the results depend on the processing

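Of 137 counts of members called under the alternatives, over the 7 comparisons, 133 were 0 as in the main analysis. In inferior retina 1 member (*Vegfa*) passed with a variance trend (adjusted p = 0.0498). Over the mean of both regions 1 (*Vegfa*) passed with a variance trend or median centring (adjusted p = 0.0188 and 0.0496), and 2 (*Vegfa* and *Pgf*) passed when probe sets with a mean under 6 were left out (adjusted p = 0.0311 and 0.0313). The last tests fewer probe sets, and for the others the cause was not tested. Leaving out single arrays gave 0 members called in each comparison every time, and 4 to 5 members whose hyperoxia and control arrays did not overlap. Quantile normalization or median centring gave 3 such members.

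With the replicate number as a block (replicate block), 0 members passed in each of the 7 comparisons, and the adjusted p of the mean change was 0.0916 for *Vegfa* and 0.123 for *Pgf*. Over all probe sets, the difference between replicates 1 and 2 was at most weakly correlated between groups (r from -0.02 to 0.14). The numbers were not taken to pair the samples. *Vegfa*, *Tek* and the medians of the endothelial, pigment epithelium and lens lists were higher on replicate 2 than on replicate 1 in all 4 groups. The share of all probe sets with the same order in every group was not counted, so a link to the replicate number is not shown.

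Of 567 alternatives to 29 member differences, 551 kept sign and side, 5 passed and 11 changed sign, in 7 differences of small size. Many of the 567 could not change a difference, so the 551 does not measure its stability. Some alter only the test, each member has 1 probe set to average, and an array outside a comparison does not enter its difference. The superior *Kdr* difference became -0.00507 with median centring and ranged from -0.18 to 0.20 when single arrays were left out, lowest without control superior replicate 2 and also below 0 (-0.12) without hyperoxia superior replicate 2, and was 0.33 with the pigment epithelium covariate. With single arrays left out, the *Angpt2* difference ranged from -0.27 to 0.018 in inferior retina (above 0 without hyperoxia inferior replicate 1) and from -0.065 to 0.18 in superior retina (below 0 without hyperoxia superior replicate 2). The superior *Nrp1* difference ranged from -0.12 to 0.0083 (above 0 without control superior replicate 1) and was 0.20 with the pigment epithelium covariate. The control *Kdr* difference between regions ranged from -0.34 to 0.045 (above 0 without control superior replicate 1). The difference of the changes ranged from -0.23 to 0.012 for *Vegfa* (above 0 without hyperoxia inferior replicate 1) and from -0.036 to 0.25 for *Pgf* (below 0 without control superior replicate 1), and for *Pgf* it was -0.020 with the pigment epithelium covariate. Over all probe sets, 142 passed in inferior retina (2 by the methods' t-test, 374 with a variance trend) and 164 over both regions (2 and 291), so the number called depended on how the spread was estimated. The number of arrays limits the precision.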
